A study of Drosophila melanogaster with 5 samples.

Results

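The 10 genes described here mark Drosophila blood cells or equip them for phagocytosis, and were followed through ribosome profiling of S2 cells. They were chosen by name among the annotated coding sequences (CDSs), with 33 listed CDSs at 25 distinct positions out of 28529 CDSs of 13967 genes. By role they are the bacterial phagocytosis receptors eater and NimC1, the apoptotic cell receptors drpr and crq, the scavenger receptors pes and Sr-CI, the hemocyte markers He and Hml, and the transcription factors srp and ush. All 10 genes were found, NimC1 under the older spelling nimC1 and through its FlyBase identifier. Each gene is given by its longest CDS unless stated.

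Hemocytes are the blood cells of insects. Most are plasmatocytes, macrophage-like cells that engulf bacteria and dying cells, while crystal cells carry out melanisation and lamellocytes encapsulate parasites. Plasmatocytes recognise their targets through transmembrane receptors, among them the Nimrod family with its EGF-like repeats, the class C scavenger receptors and relatives of mammalian CD36. The GATA factor Serpent (srp) directs the blood cell fate in the embryo, and the Friend-of-GATA protein U-shaped (ush) binds GATA factors and alters their output. S2 cells are a line grown from late Drosophila embryos that can phagocytose and are widely treated as hemocyte-like.

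No mutant or treated group was compared, and all cells received cycloheximide before lysis, a drug that stalls ribosomes on mRNA. Poly-Ribo-Seq separates polysomes on a sucrose gradient before the ribosome-protected fragments (footprints) are sequenced, so that mRNAs carrying many ribosomes (large polysomes) and few ribosomes (small polysomes) were profiled apart. There were 4 footprint libraries, namely large polysomes, all polysomes from a separate experiment with rRNA depletion, small polysomes from a second and more deeply sequenced experiment (extensive), and small polysomes from the first experiment (initial), beside 1 sample of total cytoplasmic mRNA. Each fraction has 1 library, so no p-value could be computed, and the only view of the spread between experiments is the pair of small polysome libraries.

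Densities are in RPKM, which scales reads by CDS length and by library size, and coverage is the share of the CDS under footprints. The library divisors were 2625000 reads for large polysomes, 3190000 for all polysomes, 9160000 for extensive small polysomes, 5498000 for initial small polysomes and 4560000 for mRNA, and the longest CDSs held 51.7% to 79.1% of them. Intervals are exact 95% intervals on recovered reads and cover counting error only. A CDS was called translated, by the study's limits, when its density reached about 12 RPKM, its coverage 0.57 and its count 5 reads.

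The defining markers of the cell line were mixed. Of 11 hemocyte markers 4 were translated in every footprint library, namely srp, ush, crq and Pxn, the peroxidasin of the blood cell matrix, a share close to that of all genes translated per library (23.1% to 38.3%). The others, among them eater, NimC1, He and Hml, were translated in none. None of 3 crystal cell, 4 neuron, 4 muscle and 4 fat body markers was translated, and the fat body markers all stood at 0 RPKM in all polysomes. The neuron marker elav lay near the limits, with 12.1 RPKM at a coverage of 0.27 in large polysomes. In all polysomes it had 8.85 RPKM at a coverage of 0.56. The longer lists given at the end also hold translated genes, such as LanA among plasmatocyte and msn and cher among lamellocyte genes. Of 3 lamellocyte markers, PPO3 (a prophenoloxidase) was translated in all polysomes and initial small polysomes, and of 4 germline markers, bam was translated in every footprint library.

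The 10 genes fell into 5 that were translated in every footprint library and 5 that were translated in none. The translated genes were drpr, crq, pes, srp and ush, and the others were eater, NimC1, Sr-CI, He and Hml. Across all 13842 genes with values, 23.1% were translated in large polysomes, 38.3% in all polysomes, 35.7% in extensive small polysomes and 29.3% in initial small polysomes. The genes below the limits were not alike. In these bulk lysates fewer cells with a gene switched on and less RNA per cell cannot be told apart. Hml and NimC1 were nearly silent, He gave a few reads, Sr-CI lay near the limits, and eater had an mRNA density above that of 79.7% of genes.

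**Figure D1:**
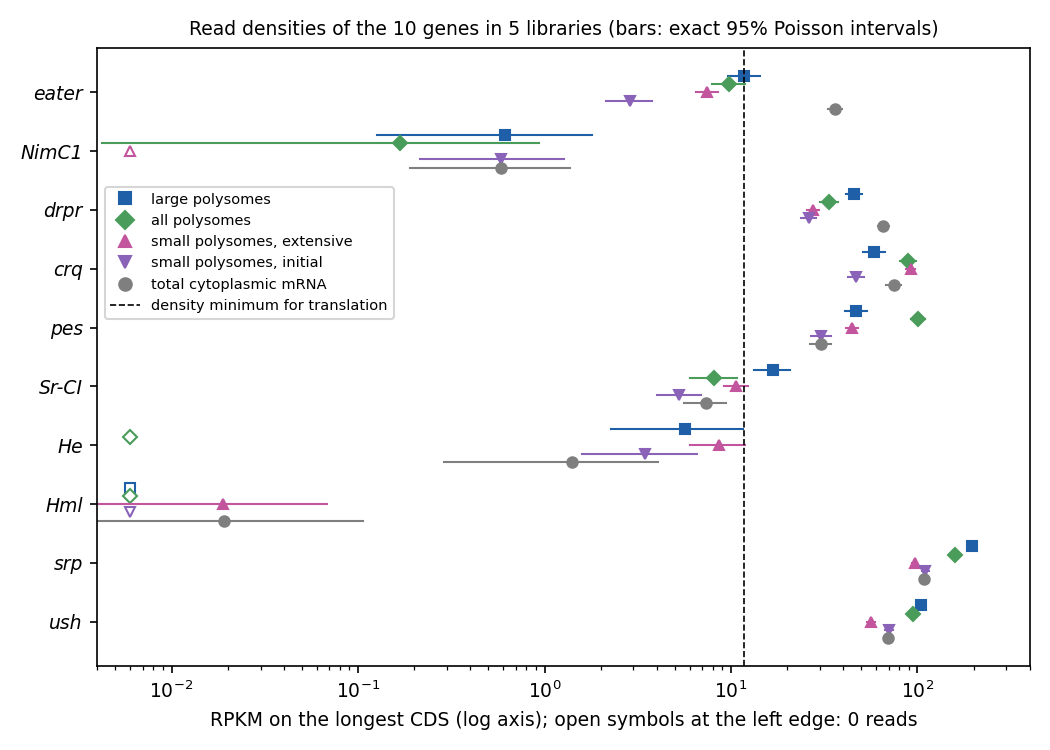
Read density (RPKM, log axis) of each of the 10 genes on its longest CDS in large polysomes, all polysomes, extensive small polysomes, initial small polysomes and total cytoplasmic mRNA, with exact 95% Poisson intervals. Open symbols at the left edge stand for 0 reads and the dashed line for the study's density minimum. The footprint densities of drpr, crq, pes, srp and ush all lie above the line, and those of eater lie far below its mRNA density of 36.2 RPKM.

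Eater is a Nimrod family receptor that binds bacteria and also anchors sessile hemocytes. Its CDS of 3225 nt lies on 3R at 22921646 to 22925382 (FlyBase Release 5 coordinates, as for all positions here). Its density was 11.81 RPKM in large polysomes, 9.72 in all polysomes, 7.45 in extensive small polysomes and 2.88 in initial small polysomes, against 36.2 RPKM of mRNA. Footprint density was thus below mRNA density in each library. Coverage was 0.26 in large polysomes, 0.38 in all polysomes, 0.33 in extensive small polysomes and 0.15 in initial small polysomes. In large polysomes the density was at the limit and the coverage was not.

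Among the receptors other than NimC1, which had 5 mRNA reads, eater had the fewest footprints for its mRNA in each footprint library. Translational efficiency (TE), the footprint density over the mRNA density, was 0.33 (interval 0.26 to 0.40) in large polysomes and 0.27 (0.21 to 0.33) in all polysomes. It was 0.21 (0.17 to 0.24) in extensive and 0.08 (0.06 to 0.11) in initial small polysomes. Among the 3013 genes whose mRNA density lay within 2-fold of that of eater, 8.80% fell below its TE in large polysomes, 1.46% in all polysomes, 2.02% in extensive small polysomes and 1.23% in initial small polysomes. Coverage was also below the median of genes of like length and like reads, which was 0.34 in large polysomes, 0.54 in all polysomes, 0.53 in extensive small polysomes and 0.20 in initial small polysomes, over 34 to 100 genes. The study kept only uniquely mapping footprint reads and gave no count of unique reads for mRNA. The protein carries many similar repeats. How many reads on them were lost, and whether footprints lost more than mRNA reads through length or filter, was not tested.

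NimC1, a further Nimrod receptor for bacteria and the antigen of a common plasmatocyte antibody, was close to silent. Its CDS of 1869 nt lies on 2L at 13974230 to 13976196 and received 3 reads in large polysomes, 1 in all polysomes, 0 in extensive small polysomes, 6 in initial small polysomes and 5 from mRNA. These are 0.61, 0.17, 0, 0.58 and 0.59 RPKM in that order of libraries. The count of 0 in extensive small polysomes allows up to 0.18 RPKM, taking 3 reads as the limit that a count of 0 allows, here and below. At 10 footprint reads over the 4 libraries no order between them can be read.

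Draper (drpr) is the receptor through which glia and hemocytes clear dying cells, signalling through a cytoplasmic tail. Its longest CDS (3129 nt, 3L at 1716300 to 1724092) had 45.8 RPKM in large polysomes, 33.7 in all polysomes, 27.5 in extensive small polysomes and 26.1 in initial small polysomes, against 65.7 RPKM of mRNA. Coverage was 0.78, 0.92, 0.88 and 0.77 in the same footprint libraries. Like eater, drpr had fewer footprints than its mRNA density in every library, though the deficit was smaller. TE was 0.70 (0.62 to 0.79) in large polysomes, 0.51 (0.45 to 0.58) in all polysomes, 0.42 (0.38 to 0.46) in extensive and 0.40 (0.35 to 0.45) in initial small polysomes. Of 2261 genes with mRNA within 2-fold, 34.6% were below this TE in large polysomes, 7.12% in all polysomes, 18.8% in extensive and 23.7% in initial small polysomes.

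Croquemort (crq), the CD36 relative that lets embryonic macrophages take up apoptotic corpses, passed the limits in each footprint library. Its 5 listed CDSs share 1 position on 2L (449021 to 450794, 1476 nt), with 58.6 RPKM in large polysomes, 88.8 in all polysomes, 92.0 in extensive small polysomes and 46.8 in initial small polysomes, against 74.6 RPKM of mRNA. Coverage was between 0.81 and 0.99. The density in extensive small polysomes was 1.96 times that in initial small polysomes (interval 1.75 to 2.21), so the order of large and small polysomes depended on which experiment was used. TE was 0.79 (0.67 to 0.92) in large polysomes, 1.19 (1.04 to 1.36) in all polysomes, 1.23 (1.11 to 1.37) in extensive and 0.63 (0.55 to 0.72) in initial small polysomes. Of 2046 genes with like mRNA density, 43.1%, 73.7%, 65.0% and 45.4% were lower in these libraries.

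Peste (pes) is a further CD36 relative, known in S2 cells for the uptake of mycobacteria. On its 1668-nt CDS (2L, 7987877 to 7991480) the density was 47.0 RPKM in large polysomes, 100.4 in all polysomes, 44.8 in extensive small polysomes and 30.4 in initial small polysomes, against 30.4 RPKM of mRNA. The all polysomes library stood above both kinds of fraction. TE was 1.55 (1.28 to 1.88) in large polysomes, 3.30 (2.83 to 3.87) in all polysomes, 1.47 (1.27 to 1.72) in extensive and 1.00 (0.84 to 1.20) in initial small polysomes. In all polysomes, 98.6% of 3095 genes with like mRNA density had a lower TE, in contrast to eater at the other end.

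The excess of pes in all polysomes was 2.13-fold over large polysomes (interval 1.81 to 2.52), 2.24-fold over extensive small polysomes (1.998 to 2.51) and 3.30-fold over initial small polysomes (2.85 to 3.83). The medians of all genes in these ratios were 1.12, 1.02 and 1.40. This set of ratios was added after the values were seen, and fraction and experiment cannot be told apart in it. For comparison crq had 1.52 (1.29 to 1.79), 0.96 (0.86 to 1.08) and 1.90 (1.65 to 2.18). A 264-nt CDS of pes (87 residues), which shares only its first coding exon with the long form, had 28.9 RPKM in large polysomes, 34.4 in all polysomes, 21.5 in extensive and 13.8 in initial small polysomes, against 14.1 RPKM of mRNA. Its coverage of 0.35 to 0.47 was below the limit in every library, so it was not called translated.

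Sr-CI is a class C scavenger receptor that binds bacteria. The 1890-nt CDS (2L, 4121760 to 4123899) had 16.7 RPKM in large polysomes, 8.13 in all polysomes, 10.6 in extensive small polysomes and 5.29 in initial small polysomes, against 7.31 RPKM of mRNA. Coverage was 0.42, 0.50, 0.67 and 0.25 in the same footprint libraries. Large polysomes passed the density limit and extensive small polysomes the coverage limit, and no library passed both. With a coverage limit of 0.40 Sr-CI was called translated in large polysomes, and with the density limit at 0.5 of its value in extensive small polysomes. TE was 2.29 (1.63 to 3.23) in large polysomes, 1.11 (0.75 to 1.64) in all polysomes, 1.45 (1.09 to 1.97) in extensive and 0.72 (0.49 to 1.06) in initial small polysomes.

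Hemese (He), a glycosylated surface protein of hemocytes, has a short CDS of 471 nt on 2L (13972240 to 13972889). It received 7 reads in large polysomes, 0 in all polysomes, 37 in extensive small polysomes, 9 in initial small polysomes and 3 from mRNA. The densities were 5.66 RPKM in large polysomes, 8.58 in extensive small polysomes, 3.48 in initial small polysomes and 1.40 in mRNA, and the 0 in all polysomes allows up to 1.997 RPKM by the limit of 3 reads. Footprints were therefore present in 3 of 4 footprint libraries but below the limits in each, and 0.55 was the highest coverage.

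Hemolectin (Hml), a large secreted clotting factor and the classic plasmatocyte marker, was at or near 0. On 11532 nt of CDS (3L, 13839308 to 13853031) it received 0 reads in large polysomes, all polysomes and initial small polysomes, 2 in extensive small polysomes and 1 from mRNA. By the limit of 3 reads the counts of 0 allow 0.10, 0.08 and 0.05 RPKM, a tighter limit than for any other of the 10 genes because of the length of the CDS.

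Both transcription factors were among the most densely translated of the set. Serpent (3795 nt, 3R, 11819948 to 11829225) had 195.9 RPKM in large polysomes, 158.4 in all polysomes, 96.6 in extensive small polysomes and 110.2 in initial small polysomes, against 108.9 RPKM of mRNA. U-shaped (3639 nt, 2L, 524038 to 540019) had 104.9, 94.8, 56.4 and 70.5 RPKM in these footprint libraries, against 69.7 RPKM of mRNA. Unlike the receptors crq and pes, both had a lower density in extensive than in initial small polysomes, by ratios of 0.88 (0.83 to 0.92) for srp and 0.80 (0.75 to 0.86) for ush. The TE of srp was 1.80 (1.69 to 1.92) in large polysomes, 1.45 (1.36 to 1.55) in all polysomes, 0.89 (0.84 to 0.94) in extensive and 1.01 (0.95 to 1.08) in initial small polysomes. For ush it was 1.504 (1.38 to 1.64), 1.36 (1.25 to 1.48), 0.81 (0.75 to 0.87) and 1.01 (0.93 to 1.09) in these libraries. Among genes with like mRNA density, 93.2% in large but 51.7% in extensive small polysomes were below srp, and 85.6% in large but 44.7% in extensive small polysomes were below ush.

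TE differed in direction among the 10 genes. In all polysomes 1 gene (pes) had a TE of at least 2, where 13.5% of 8473 genes did, and 4 genes had a TE of at most 0.5, where 17.2% of genes did. Of these 4 only eater rests on many mRNA reads (533), whereas NimC1, He and Hml had 5, 3 and 1. In large polysomes 2 genes had a TE of at least 2 (12.1% of all genes) and 2 of at most 0.5 (30.6%). In extensive small polysomes these were 1 (16.5%) and 3 (27.5%), and in initial small polysomes 1 (8.39%) and 3 (36.1%). With reads scaled to CDSs they became 1 (24.7%) and 2 (21.1%) in extensive and 1 (21.5%) and 2 (23.1%) in initial small polysomes. There drpr no longer passed, at 0.52 and 0.61. He, with 0 footprint reads in all polysomes, had a TE of 4.05 in large polysomes, 6.14 in extensive and 2.49 in initial small polysomes on its 3 mRNA reads. The median TE of the 10 genes was 1.27 in large polysomes, 0.81 in all polysomes, 0.94 in extensive and 0.86 in initial small polysomes, beside 0.85, 0.98, 0.92 and 0.70 over all genes. Genes of the set lay above the median of all genes in 6, 5, 5 and 6 of 10 cases in these libraries.

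**Figure D2:**
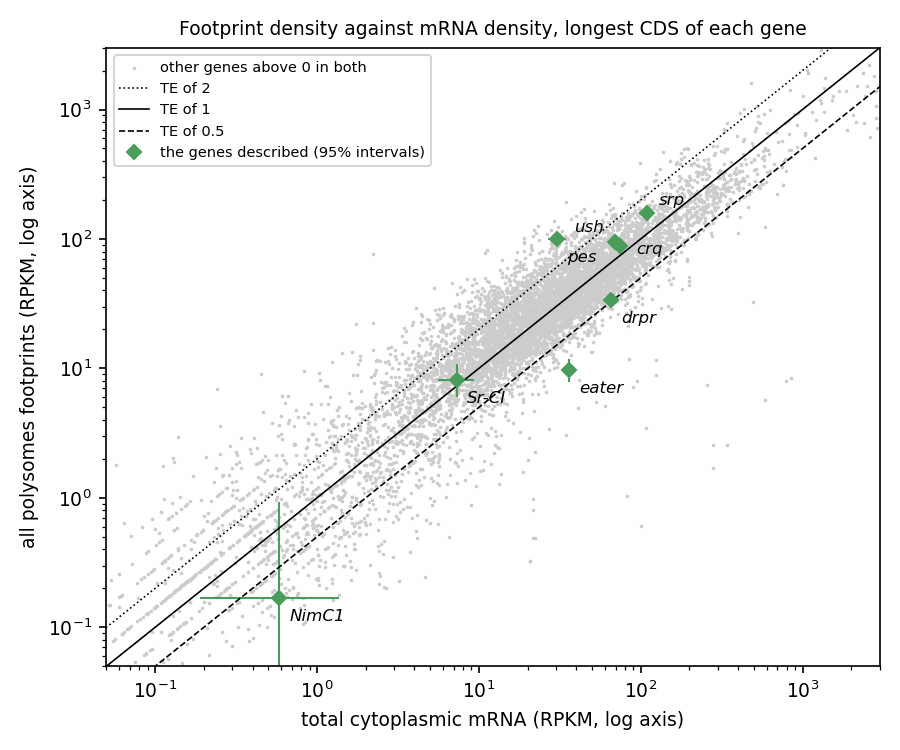
Footprint density in all polysomes (RPKM, log axis) against total cytoplasmic mRNA (RPKM, log axis) for the longest CDS of each gene, with the 10 genes as diamonds with exact 95% intervals (He and Hml had 0 footprint reads there and are not drawn). Lines mark a TE of 2, 1 and 0.5. Pes lies above the upper line at a TE of 3.30, drpr on the lower line at 0.51 and eater below it at 0.27.

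Large and small polysomes of the first experiment were compared next, to ask on which size of polysome the genes were translated. With at least 5 reads in both libraries together, 9 of 10 genes could be compared, all but Hml. In the deposited scaling all 9 had a ratio of large over initial small polysomes above 1, and 2 of them (NimC1 and crq) fell below 1 when reads were scaled to the reads on CDSs. That scaling lowers the ratio of every gene by 0.48 on the log2 scale, so the genes are read here against the median of all 7341 genes, 1.30. Against it 7 of the 9 were higher.

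At least 2-fold higher density in large than in initial small polysomes was seen for 2 of the 9 genes, eater and Sr-CI, where 32.7% of genes passed that ratio. None was at least 2-fold lower, where 22.3% of genes were. With reads scaled to CDSs these background shares became 18.6% and 30.02%, and eater and Sr-CI still passed. The ratio was 4.11 (2.90 to 5.87) for eater and 3.16 (2.22 to 4.53) for Sr-CI. It was 1.78 (1.67 to 1.89) for srp, 1.75 (1.53 to 2.02) for drpr, 1.55 (1.29 to 1.86) for pes, 1.49 (1.37 to 1.62) for ush and 1.25 (1.06 to 1.48) for crq. He with 1.63 (0.52 to 4.92) and NimC1 with 1.05 (0.17 to 4.90) were too low in reads to be placed.

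Longer CDSs can hold more ribosomes, so the ratios were also set beside genes whose CDS length was within 20%. The median ratio of like-length genes was 2.09 for eater, drpr and ush and 2.10 for srp, and it was 1.81 for Sr-CI, 1.69 for pes and 1.63 for crq. Only eater, Sr-CI and He exceeded their like-length median. The translated genes drpr, crq, pes, srp and ush all lay below theirs. With the extensive library in place of the initial one, drpr, crq and pes stayed below their like-length medians, and srp and ush lay above them (ush at 1.86 beside 1.82).

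The calls for eater and Sr-CI did not hold when the extensive library took the place of the initial small polysomes. The ratio of large over extensive small polysomes was 1.59 (1.24 to 2.02) for eater and 1.57 (1.20 to 2.05) for Sr-CI. The ratio of srp became 2.03 (1.92 to 2.14), that of crq 0.64 (0.55 to 0.73) and that of He 0.66 (on 7 and 37 reads). For eater the value was now below its like-length median of 1.82, and for srp it was now above its like-length median of 1.93.

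**Figure D3:**
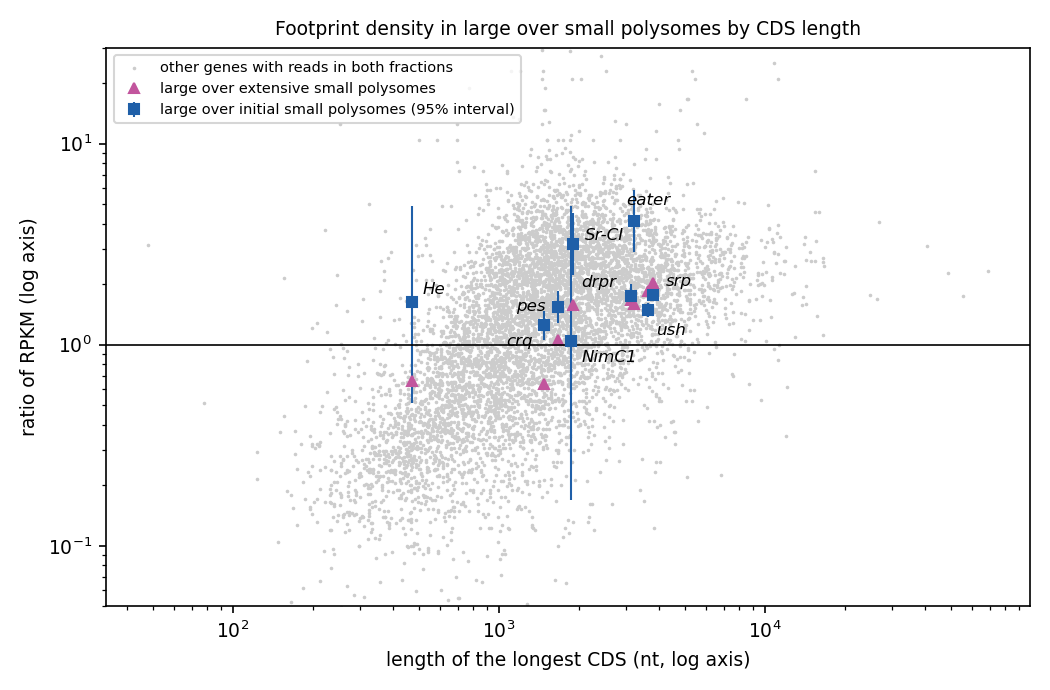
Ratio of footprint density in large over small polysomes (log axis) against CDS length in nt (log axis), with grey points for other genes, squares with exact 95% intervals for large over initial small polysomes and triangles for large over extensive small polysomes. With the extensive library eater lies at 1.59 and Sr-CI at 1.57, against 4.11 and 3.16 with the initial library, and srp lies at 2.03, against 1.78.

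The pair of small polysome libraries shows how far such values spread between experiments. The ratio of extensive over initial small polysomes was at least 2-fold for 3 of the 9 genes, eater at 2.59 (1.90 to 3.58), He at 2.47 (1.17 to 5.81) and Sr-CI at 2.01 (1.48 to 2.77), where 18.3% of 7650 genes passed. With reads scaled to CDSs Sr-CI no longer passed, at 1.63. Divided by the median of all genes, the ratios were 1.99 for eater, 1.90 for He and 1.54 for Sr-CI, none of them 2-fold. NimC1, with 0 against 6 reads, had a ratio of 0 (interval 0 to 0.51) and so counted as at least 2-fold lower, where 3.08% of genes did. Its interval reaches past 0.5 and its 6 reads covered 0.017 of the CDS, so it is too low in reads to be placed. Against the median of all genes, 1.30, the receptors eater, crq, pes, Sr-CI and marker He were higher, whereas drpr, srp and ush were lower along with NimC1.

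Isoforms of srp and drpr allowed densities to be split along the mRNA. The reads of a CDS that lies wholly within a longer one were subtracted from those of the longer. For srp this separated a 5' part of 1554 nt, found in the long isoforms only, from the 2241 nt of the isoforms that start further downstream. In mRNA the parts had equal densities, 108.4 RPKM in the 5' part and 109.3 in the shared part. Among the footprints the 5' part had 177.5 RPKM and the shared part 208.7 in large polysomes, and 151.9 and 162.8 in all polysomes. The order was the other way in small polysomes, with 145.4 RPKM in the 5' part and 62.8 in the shared part of the extensive library, and 120.4 and 103.2 in the initial library.

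As a ratio of the 5' over the shared part, srp thus had 0.85 (0.77 to 0.93) in large polysomes, 0.93 (0.85 to 1.02) in all polysomes, 2.31 (2.16 to 2.48) in extensive and 1.17 (1.07 to 1.27) in initial small polysomes, against 0.99 (0.90 to 1.09) in mRNA. Small polysomes of both experiments were thus above 1, by different amounts. Over 167 genes with the same kind of CDS pair and at least 20 reads in each part, the median ratio was 0.80 in large polysomes, 0.75 in all polysomes, 0.82 in extensive and 0.82 in initial small polysomes, against 0.63 in mRNA. Relative to mRNA, srp had 2.33 in extensive small polysomes, above 87.4% of these genes, and 1.18 in initial small polysomes, above 34.1%. The medians of these genes were 1.33 and 1.36. The change of the ratio between the experiments was 1.98-fold for srp, and 89.8% of these genes had a smaller one, with a median of 0.98. The shared part was itself uneven in footprints. Its 831 nt absent from the shortest CDS had 1.38 times the density of the rest in extensive small polysomes. That ratio was 0.71 in initial small polysomes, 0.70 in large polysomes, 0.88 in all polysomes and 1.03 in mRNA. The alternative start and its own mRNAs cannot be told apart from uneven footprints along the long form in these values.

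For drpr the long isoforms carry 2 internal coding exons of 1287 nt, which extend the extracellular part of the receptor. Their mRNA density was 47.0 RPKM, against 78.7 in the 1842 nt of the shared part, a ratio of 0.60 (0.52 to 0.69). Footprint ratios were higher than this, at 0.91 (0.73 to 1.12) in large polysomes, 0.83 (0.66 to 1.04) in all polysomes, 0.73 (0.63 to 0.85) in extensive and 1.59 (1.31 to 1.92) in initial small polysomes, although the intervals of all polysomes and of the extensive library overlap that of mRNA. The small polysome libraries disagreed by more than counting error, with 22.6 RPKM in the extensive and 33.4 in the initial library on these exons and 30.9 and 21.0 on the shared part. Over the 6 listed CDSs of drpr, densities ran from 43.4 to 49.1 RPKM in large polysomes, from 30.5 to 36.7 in all polysomes, from 24.5 to 31.1 in extensive and from 18.9 to 26.2 in initial small polysomes, against 60.1 to 79.0 in mRNA. Those of ush differed less, from 104.9 to 106.6 RPKM in large polysomes and from 70.5 to 72.7 in initial small polysomes, against 69.7 to 70.6 in mRNA.

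**Figure D4:**
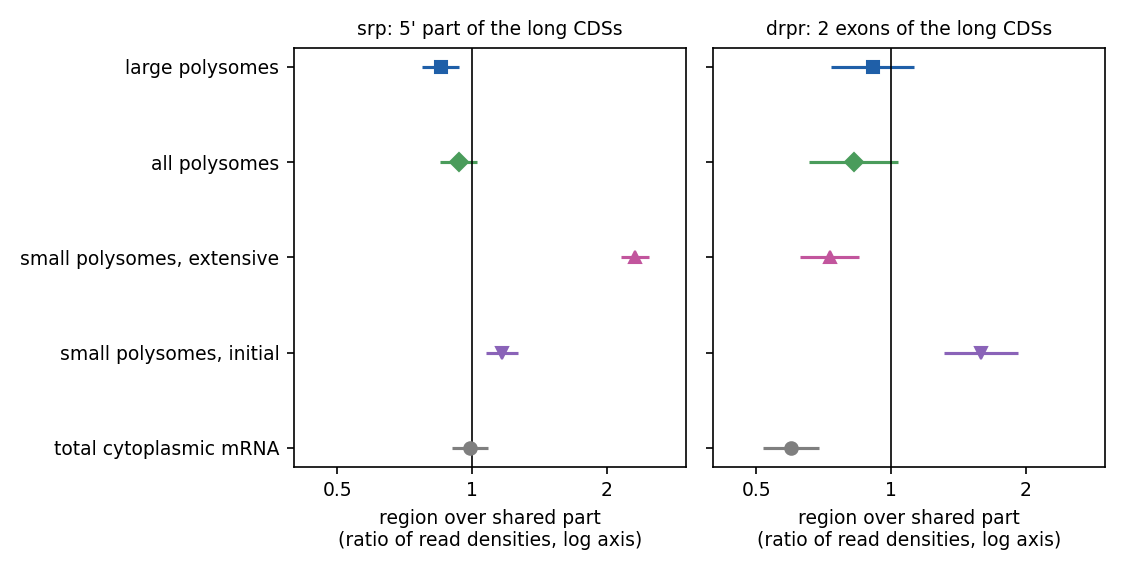
Ratio of read density (log axis) in the part found only in the long CDSs over the part shared with shorter CDSs, for srp (left, 5' part of 1554 nt) and drpr (right, 2 exons of 1287 nt), by library, with exact 95% intervals. For srp the extensive small polysomes stand apart at 2.31 beside 0.99 in mRNA, and for drpr the initial small polysomes stand apart at 1.59 beside 0.60 in mRNA.

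Upstream ORFs (uORFs), short frames in the 5' leader, were listed for 5 of the genes, with 17 in ush, 8 in srp, 4 in pes, 2 in crq and 1 in NimC1. Of these 32 uORFs 28 are not spliced, and 14 of the 28 were translated in at least 1 footprint library by the same limits, 4 of them in every one. Among all 12661 unspliced uORFs 19.3% were translated in at least 1 library, and among those on transcripts with at least 20 RPKM of mRNA, as here for all but NimC1, 42.1% were. Several of the uORFs overlap each other and so share reads. For 15 of the 32 a density of 0 was listed in some library although coverage was at least 0.57, among them 10 in ush, so a missing uORF call in these libraries cannot be read as a lack of footprints.

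In srp a uORF of 150 nt (3R, 11818969 to 11819118) was translated in every footprint library, with 53.3 RPKM in large polysomes, 35.5 in all polysomes, 37.1 in extensive small polysomes and 25.5 in initial small polysomes. A further uORF of 150 nt (11811920 to 11812069) had 58.4, 56.4, 13.1 and 54.6 RPKM. Both were less dense than the srp CDS in every library. In crq the 42-nt uORF (2L, 452613 to 452654) had 45.4 RPKM on 5 reads in large polysomes, 37.3 on 5 in all polysomes, 49.4 on 19 in extensive and 26.0 on 6 in initial small polysomes. That uORF too was below the density of its CDS throughout.

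A uORF of pes of 102 nt (2L, 7991481 to 7991582, 33 residues) ends directly before the start codon of the CDS. Its density was 59.8 RPKM on 16 reads in large polysomes, 49.2 on 16 in all polysomes, 91.0 on 85 in extensive small polysomes and 16.0 on 9 in initial small polysomes. It was above the CDS density of pes in large and extensive small polysomes and below it in all and initial small polysomes. A second frame of 114 nt overlaps it, so these reads cannot be assigned to either frame. Footprints at the start codon of the CDS may also reach into the uORF, and their share was not tested.

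The wider families of the receptors mostly stayed below the limits. For comparison, 23.1% to 38.3% of all genes were translated per footprint library, and the share translated in any of them was not computed. Of 9 further Nimrod genes only NimC4, a receptor for apoptotic cells also called simu, was translated in any library, at 14.7 RPKM in all polysomes, though 5 of the 9 had more mRNA than the median of all genes, 1.97 RPKM. None of the other 3 class C scavenger receptors and none of 12 further CD36 relatives with values was translated in any library, and their highest density in all polysomes was 1.54 and 1.57 RPKM. Sr-CI with 8.13 RPKM, crq with 88.8 and pes with 100.4 in all polysomes stood above all of these class C and CD36 relatives. Among Nimrod genes, eater with 9.72 RPKM and NimC1 with 0.17 in all polysomes lay below NimC4.

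Of 10 genes of the machinery downstream of Draper, 8 were translated in all polysomes and 7 in each other footprint library, beside 38.3% of all genes in all polysomes and 23.1% to 35.7% in the others. The densest in all polysomes were the small GTPases Rac1 (204.7 RPKM) and Rac2 (83.9), which drive the actin changes of engulfment, and the adaptor ced-6 (106.5). Of 14 other recognition receptors and opsonins 9 were translated in all polysomes, 4 in large polysomes, 7 in extensive and 5 in initial small polysomes. Among them were mys, an integrin beta subunit, with 152.6 RPKM in all polysomes, Dscam, an immunoglobulin receptor with many isoforms, with 77.1, and Mcr, a complement-like protein, with 44.4.

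Blood cell regulators and matrix genes were split in the same way, beside 23.1% to 38.3% of all genes translated per footprint library. Of 6 further plasmatocyte markers Pxn and the laminin LanA were translated in every footprint library, with 702.1 and 519.4 RPKM in all polysomes, and the other 4 in none. Of 7 genes of Pvr and JAK/STAT signalling 5 were translated in large and all polysomes and 4 in both small polysome libraries, led by the growth factor receptor Pvr (202.5 RPKM in all polysomes), Stat92E (166.9) and the ligand Pvf2 (38.9). Of 7 further blood cell transcription factors pnr, a GATA factor, and zfh1 were translated in every footprint library, at 155.5 and 115.7 RPKM in all polysomes, while 5 had no mRNA reads. Of 5 lamellocyte genes msn (146.4 RPKM in all polysomes), cher (52.5) and PPO3 (18.6) were translated in at least 1 library, and bam had 49.8 RPKM. Together 30 of 76 listed genes were translated in all polysomes, against 38.3% of all genes.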

How the data were processed

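The values come from the authors' pipeline, which used Bowtie to filter out ribosomal and transfer RNA, then TopHat on the FlyBase Release 5.50 genome. Multiply mapping footprint reads were dropped, and alignments could hold at most 2 mismatches. The study lists no unique count for mRNA, so whether the mRNA side of TE was filtered alike is not known. The deposited RPKM values divide reads by CDS length and by aligned reads, and the deposited coverage is a fraction from 0 to 1. The divisors of the footprint libraries match the study's totals of mapped reads before multiply mapping reads were dropped. By the study's counts, the share of unique reads among these libraries was lowest in initial small polysomes. Densities of that library are therefore scaled lower than the others, and how much of each ratio stems from this was not tested. The mRNA values appear to pool 2 mRNA replicates, since the divisor is close to their sum. The all polysomes library is the study's separate rRNA-depleted experiment. Counting strand is not given in the sources used here.

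Reads were recovered as RPKM times length over the smallest such product of each library, and 100% of CDSs came out whole (within 0.01 of a read). Each gene was represented by its longest CDS, and 244 CDSs without RPKM were left out. Translated CDSs had at least 11.8 RPKM, 0.57 coverage and 5 reads. TE was computed for genes with mRNA reads. The design had 1 library per fraction, so ratios carry exact Poisson or conditional binomial intervals (95%) and no test. A 2-fold ratio counted as called. Simulated large and small libraries of 13842 genes, with 200 changed 2-fold, gave a median of 1.99 for these 200, and 95.2% of 5634 intervals held the true ratio. Both libraries were drawn with counting error only, the model behind the intervals, so this checks the computation and not the spread between experiments.

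The 10 genes and the gene lists were chosen with earlier results of these data known. Named beside the 10 are, from each list, the translated genes, or the 3 densest in all polysomes where more than 3 were translated. The marker elav was named in addition, after its values were seen. Genes were matched by the spelling of the tables or by FlyBase identifier. Of 94 listed genes 92 had values, and 11021 of 11587 uORF transcripts matched a gene in the BDGP6 annotation, of which no coordinates were used. Spliced uORFs got no reads or calls. ORFs of non-coding RNAs were not used. The scripts ran under Python 3.11.15 with scipy 1.17.1 for intervals, pandas 2.3.3 and numpy 2.4.6 for tables, and matplotlib 3.10.9 for plots.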

Additional observations from a re-analysis of the deposited data

How the results depend on the processing

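The count of translated genes per library stayed at 5 or became 6 under every alternative to the cut-offs and the choice of CDS. Scaling to the reads on the longest CDSs moved the median ratio of large over initial small polysomes of the 9 genes to 1.17 (1.63 as deposited), and the median TE of the 10 genes in initial small polysomes to 1.32 (0.86 as deposited). It shifts all genes of a comparison alike, as the longest CDSs held 51.7% of reads in initial small polysomes and 72.0% in large polysomes. The other 43 alternative values of medians and counts stayed within their intervals or within 1.5-fold. For single genes, 18 of 60 alternative ratios left the counting interval and no called ratio changed direction. With the extensive library as denominator the ratios of eater, Sr-CI, crq and He moved by over 1.5-fold, as given above. On the log2(RPKM + 1) scale the ratio of NimC1 in extensive over initial small polysomes was 0.63 in place of 0, with no 2-fold call. No paired analysis was possible because each fraction has 1 library, and for the same reason no replicate could be left out. Depth limits NimC1, He and Hml, whose ratios rest on at most 37 reads in any library.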
